A study of Mus musculus with 2 samples.

Results

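Distal CpG-rich open regions are DNase-seq peaks that lie away from annotated gene starts but share the base composition of CpG islands. A peak was a member when its centre lay over 1 kb from every transcription start site (TSS) of a protein-coding gene and over 500 bp from the 5′ end of every other gene (GENCODE M21, mm10), and when the 500 bp around the centre held at least 55% G plus C and a ratio of observed to expected CpG of at least 0.6. The rule used position and sequence alone, so signal and recurrence between libraries were free to differ. Location and motifs were partly fixed by it. In replicate 1 it chose 2261 peaks out of 208627. In replicate 2 it chose 1945 out of 196566, which makes 4206 of 405193 over both lists. Members were 1.40% and 1.28% of the distal peaks of each list (mean 1.34% ± 0.0891, SD, n = 2).

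The data are from limbs of mouse embryos at day 14.5 of strain B6NCrl, male and female pooled, with no treatment or genotype contrast. The single group has 2 libraries. The labels number them as biological replicates but list 1 donor identifier for both, so the spread between them may be technical. Each library has a list of peaks of 150 bp with a signal in the authors' own unit and a list of hotspots, the significantly cut regions that hold the peaks. Read depth is unknown, so no detection limit can be given. With 1 group of 2 libraries no test between conditions exists, and an exact two-sided test over libraries cannot go below p = 0.5. Values are therefore given for each library and set against the spread between them. Peaks at gene starts were looked up for a few marker genes, and no share over all genes is given beside them. Of 10 limb genes, 9 (such as Prrx1, Pitx1, Hoxd13, Sox9, Scx and Myod1) had a peak within 500 bp of a TSS in both libraries. The exception was the endothelial gene Cdh5, with a peak in replicate 2 alone. Of 8 genes of other organs, which include the blood genes Gata1 and Spi1, none had such a peak in both libraries. Alb and Gad1 had 1 in replicate 1 alone. In bulk tissue, fewer cells with an open region and less cutting per cell cannot be told apart.

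DNase I cuts DNA where nucleosomes are displaced, which marks promoters, enhancers and insulators. In most of the mouse genome CpG is scarce, because methylated cytosine in CpG mutates readily. CpG islands escape this loss, since they are largely unmethylated in the germ line, and most of them lie at promoters of housekeeping and developmental genes. Islands away from annotated starts, often called orphan islands, are known to include unannotated promoters, coding exons of developmental genes, targets of Polycomb repression and enhancers.

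The sequences of 6 members and of 1 contrasting peak show what the rule selected. They are whole 150 bp peaks of the mm10 plus strand, written 5′ to 3′ in lower case. Capitals mark CpG dinucleotides, and in the sequence by Zfp91 they mark a match to the CTCF motif instead. The first is the recurring member of highest mean percentile of signal over both libraries, in an intron of 4931414P19Rik (chr14:54603416-54603565, 12 CpGs). Single recurring members called strongest below were ranked by this mean percentile. The second lies between genes, 254.0 kb from the nearest coding TSS, that of Nfe2l3 (chr6:51178616-51178765, 15 CpGs). The third is the strongest recurring member in a coding exon, in Angptl6 (chr9:20878236-20878385, 19 CpGs). The fourth, in an intron of Zfp91, is the strongest recurring member with a CTCF match (chr19:12794796-12794945, 15 CpGs). The fifth, by Hoxa13, was called in replicate 1 alone (chr6:52253476-52253625, 18 CpGs), and the sixth, in the HoxA cluster by 5730596B20Rik, in replicate 2 alone (chr6:52176056-52176205, 12 CpGs). The last, by Myt1l, is no member: it has 56.0% G plus C in these bases but 6 CpGs (chr12:29291076-29291225).
4931414P19Rik: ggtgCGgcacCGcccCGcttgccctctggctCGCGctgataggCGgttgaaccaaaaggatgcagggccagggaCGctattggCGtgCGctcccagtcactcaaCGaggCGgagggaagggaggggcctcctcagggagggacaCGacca
Nfe2l3: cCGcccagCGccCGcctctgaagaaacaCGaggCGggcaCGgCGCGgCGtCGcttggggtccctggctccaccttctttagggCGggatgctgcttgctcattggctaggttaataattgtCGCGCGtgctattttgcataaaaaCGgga
Angptl6: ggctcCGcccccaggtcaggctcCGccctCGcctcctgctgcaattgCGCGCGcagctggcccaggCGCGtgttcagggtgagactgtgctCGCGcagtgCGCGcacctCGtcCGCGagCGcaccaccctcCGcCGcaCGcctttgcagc
Zfp91: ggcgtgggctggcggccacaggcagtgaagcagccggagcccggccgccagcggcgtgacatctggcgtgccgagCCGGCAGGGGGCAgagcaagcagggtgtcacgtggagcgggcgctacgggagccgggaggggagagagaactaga
Hoxa13: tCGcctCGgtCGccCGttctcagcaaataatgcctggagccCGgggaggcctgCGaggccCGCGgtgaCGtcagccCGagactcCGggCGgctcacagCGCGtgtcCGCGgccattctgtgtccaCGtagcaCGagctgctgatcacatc
5730596B20Rik: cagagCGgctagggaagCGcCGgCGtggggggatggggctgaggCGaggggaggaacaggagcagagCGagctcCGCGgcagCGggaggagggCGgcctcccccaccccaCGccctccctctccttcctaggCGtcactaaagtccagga
Myt1l, not a member: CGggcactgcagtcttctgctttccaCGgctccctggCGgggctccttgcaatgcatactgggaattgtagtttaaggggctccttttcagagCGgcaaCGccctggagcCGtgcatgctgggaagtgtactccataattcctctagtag

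Members were richer in CpG and in G plus C at their centres than around them, as were the classes set beside them. The median ratio of observed to expected CpG was 0.836 and 0.818 in the central 150 bp (replicate 1, replicate 2) against 0.717 and 0.720 in the outer parts of the 500 bp window, and the median G plus C was 66.0% against 60.7% in both libraries. Other distal peaks, all those that the rule left out, had medians of 0.227 and 0.219 in the central 150 bp. Their outer parts had 0.203 and 0.199. Peaks within 500 bp of a coding TSS that met the same composition thresholds, called CpG-rich TSS peaks below, had 0.877 and 0.860. In their outer parts the medians were 0.809 and 0.815, so the rise towards the centre was not particular to members. Members thus lay near promoters in composition, which the rule fixed.

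Members gave strong signals. Their median signal was 64 in replicate 1 and 46 in replicate 2, against 39 and 29 in other distal peaks and 101 and 70 in CpG-rich TSS peaks. As a percentile of all peaks of the library, the median member stood at 76.7 and 75.7, the median of other distal peaks at 44.9 and 44.7, and that of CpG-rich TSS peaks at 93.3 and 91.2. The difference between members and other distal peaks was 31.4 percentile points ± 0.548 (SD, n = 2), larger than the spread between the libraries. Among the 50000 strongest peaks of each list it was 5.94 points. Members ranged widely all the same, from a signal of 8 to 143 in replicate 1 and from 2 to 131 in replicate 2. In the top 10% of their list were 634 members of replicate 1 (28.0%) and 504 of replicate 2 (25.9%), against 4.19% and 4.34% of other distal peaks.

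High G plus C alone went with part of this difference. Distal peaks with at least 55% G plus C but a CpG ratio below 0.6 numbered 10180 and 9919 and had a median percentile of 61.9 and 63.0. Members stood 14.8 and 12.7 points above them, but these classes were not matched for G plus C. Its median over 500 bp was 62.8% in members and 56.8% in the GC-rich, CpG-poor peaks, in both libraries. The part of this gap in the remaining difference was not tested. The hotspots of members were broader too, with a median width of 564 bp and 385 bp. For GC-rich, CpG-poor peaks it was 282.5 bp and 254 bp, and for other distal peaks 233 bp and 209 bp. The hotspot reached the ceiling of 100 of the −log10 q-value for 60.6% and 50.3% of members and for 31.1% and 26.0% of other distal peaks.

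A peak was called recurring when peaks of the other library covered at least 50% of it. The 1470 recurring members of replicate 1 had signals in close order in both libraries, with a Spearman's rho of 0.926 across these regions. They are not independent, since neighbours share a hotspot and all come from the same pair of libraries, and the figure is a description. For the 95123 recurring other distal peaks it was 0.814. The signal in replicate 1 was a median of 1.45 times that in replicate 2 (5% to 95% of members, 1.11 to 2.10 times), against 1.35 times for other distal peaks. In the top 10% of both lists lay 469 recurring members (31.9%), against 4.48% of recurring other distal peaks, and in the lower 50% of both lists 52 (3.54%) against 26.4%.

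**Figure D1:**
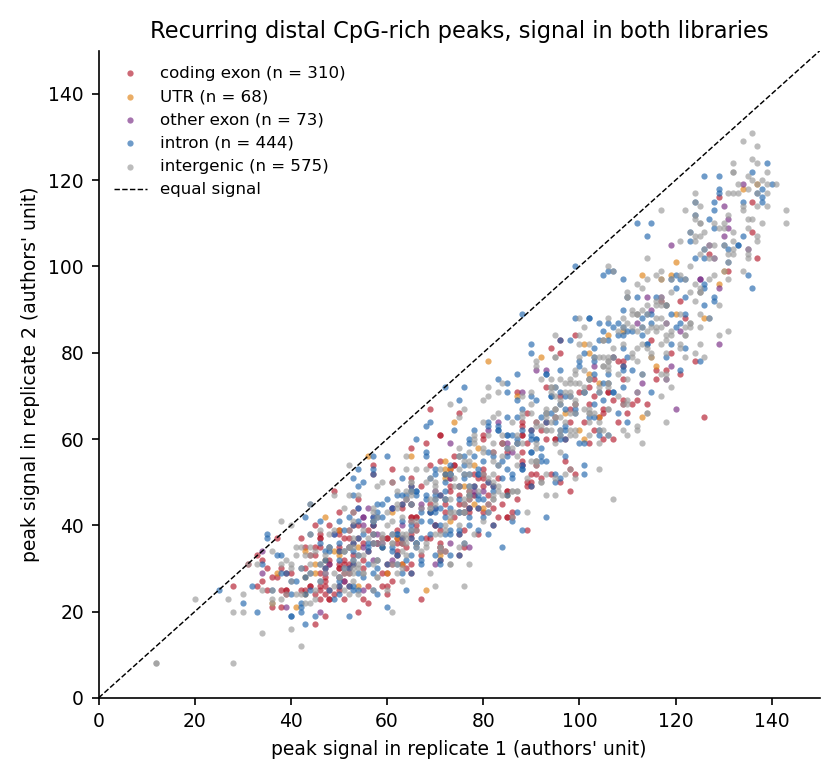
Signal of each recurring member of replicate 1 (x axis) and of the peak of replicate 2 that overlaps it most (y axis), in the authors' unit, with the location of the peak centre by colour and the line of equal signal dashed. Most points lie below that line, with a median ratio of 1.45 of replicate 1 over replicate 2.

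The 15 recurring members of highest mean percentile had signals from 134 to 141 in replicate 1 and from 117 to 131 in replicate 2. Of these 15, 11 lay between genes, 4 in introns and none in an exon. The member in 4931414P19Rik printed above had 139 and 124. The next was 6.47 kb upstream of Trappc9, a subunit of a vesicle transport complex (chromosome 15, 73067596 to 73067745), with 137 and 128. A member 18.5 kb upstream of Fos, a subunit of the AP-1 transcription factor (chromosome 12, 85455296 to 85455445), had 137 and 124 and a CpG ratio of 0.60024, at the threshold. The member assigned to Wnt7b, a Wnt ligand, lay 52.2 kb upstream of it (chromosome 15, 85634596 to 85634745), with 139 and 117.

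Some of these strong members lay at transcript starts of the RefSeq annotation, which the rule did not use. The member by Wnt7b lay 0.075 kb from such a start, and that by Scd3, a fatty acid desaturase, 0.037 kb from one, with signals of 139 and 119. The member 1.44 kb upstream of Cpeb4, which regulates polyadenylation, lay 0.169 kb from a RefSeq start, with 137 and 119. Others had no RefSeq start close by: the member by Nfe2l3, which encodes a stress-response transcription factor, lay 12.2 kb from the nearest and had 136 and 131. Members close to the 1 kb limit stood beside known promoters, as at the transcription factor gene Foxo3 (1.04 kb upstream, 138 and 120), the RNA-binding protein gene Mex3b (1.06 kb upstream, 140 and 119) and the ETS factor gene Elf2 (1.16 kb downstream, 138 and 118). The rest of the 15 lay by Aacs, Igf2bp3, Ssc4d, Creb3l1 and Cirbp, 3.13 kb to 16.0 kb from the coding TSS. A match to the SP and KLF motif (GGGCGG) was in 13 of the 15 and one to the NF-Y motif (CCAAT) in 10.

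Members recurred more often than other distal peaks in both libraries, yet less often than those of equal signal. In replicate 1, 1470 of 2261 members recurred (65.02%, 95% Wilson interval 63.03 to 66.95), and in replicate 2, 1483 of 1945 (76.2%, 74.3 to 78.1). The background over all peaks of each list was 61.3% and 65.1%, other distal peaks stood at 59.8% and 63.2%, and CpG-rich TSS peaks at 81.0% and 80.4%. GC-rich, CpG-poor distal peaks stood at 68.6% and 69.6%, above members in replicate 1 and below them in replicate 2. The intervals cover the sampling of peaks and not variation between embryos. The libraries differed more for members (mean 70.6% ± 7.94, SD, n = 2) than for other distal peaks (61.5% ± 2.40). The lower value of members, that of replicate 1, lay within the range of the background over all peaks.

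Recurrence rises with signal, so members were set against other distal peaks in each 10% of the distal list by signal. In the sixth such step (signals from 39 to 44 in replicate 1), 45 of 158 members recurred (28.5%), against 65.6% of other distal peaks. In the eighth it was 52.8% against 86.7%, and in the highest, 824 of 875 members (94.2%) against 98.2%. In replicate 2 the sixth step gave 63.3% against 71.6% and the highest 94.1% against 97.3%. Weighted by the members in each step, the difference in recurrence from other distal peaks was -19.3 points in replicate 1 and -6.69 points in replicate 2 (mean -13.0 points ± 8.91, SD, n = 2). Against GC-rich, CpG-poor distal peaks the differences were -15.4 and -1.83 points. Both libraries thus gave a deficit, but the spread between them was large beside its mean. It turned to an excess of 4.82 points in replicate 2 when recurrence meant overlap with a hotspot of the other library, and to one of 5.57 points when the 50000 strongest peaks of each list were compared. The values of replicate 1 were then -13.4 and -10.1 points.

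**Figure D2:**
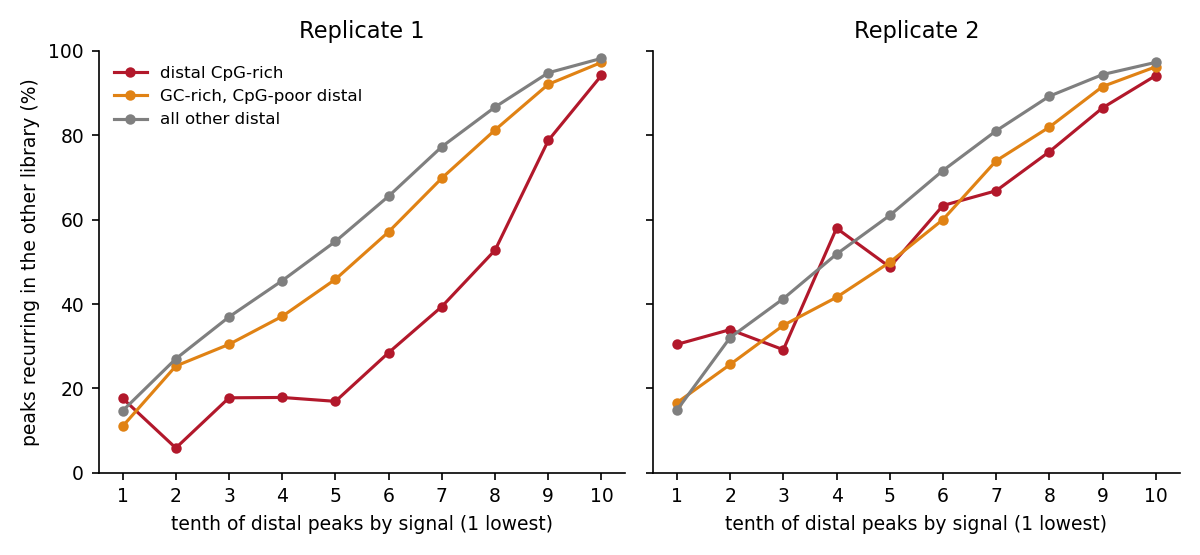
Percentage of peaks recurring in the other library (y axis) in each 10% of the distal peaks by signal (x axis, 1 lowest), for distal CpG-rich peaks, GC-rich but CpG-poor distal peaks and all other distal peaks. In replicate 1 the distal CpG-rich points lie below the others from step 2 on (28.5% against 65.6% in step 6), and in replicate 2 they lie above all other distal peaks in steps 1, 2 and 4 and below them in the rest.

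Members that did not recur often had a peak of the other library close by. Of the 791 such members of replicate 1, 432 (54.6%) had a replicate 2 peak centred within 500 bp, and of the 462 of replicate 2, 391 (84.6%) had a replicate 1 peak. For other distal peaks that did not recur the shares were 31.98% and 33.9%, and for GC-rich, CpG-poor distal ones 43.8% and 46.1%. For CpG-rich TSS peaks that did not recur they were 82.5% and 94.6%, above those of members. Overlap with any hotspot of the other library was seen for 75.8% of replicate 1 members and 93.9% of replicate 2 members, which leaves 547 and 118 with no hotspot there. Over all peaks the shares were 69.2% and 76.1%, for other distal peaks 66.6% and 71.4%, and for CpG-rich TSS peaks 92.3% and 98.6%. Each class thus had the higher share in replicate 2. Neighbouring peaks in the same list were also common: 59.3% and 57.5% of members had another peak of their own library centred within 500 bp, against 30.2% and 28.7% of other distal peaks and 61.4% and 65.1% of CpG-rich TSS peaks.

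Members without any hotspot in the other library reached signals of 84 in replicate 1 and 57 in replicate 2. In replicate 1 the highest was the member 7.25 kb downstream of the TSS of Hoxa13, a homeobox gene of the distal limb, with a signal of 84 (percentile 87.8). Next came the member in the coding exon of Junb, an AP-1 subunit (chromosome 8, 84977536 to 84977685), with 82. In replicate 2 the highest were the member in the HoxA cluster by 5730596B20Rik, with 57 (percentile 85.0), and the member 1.23 kb downstream of the TSS of Bahcc1, with 56 (chromosome 11, 120237856 to 120238005). The next 6 of each list were named after their values were seen: in replicate 1 they lay by Zic4, Tbr1, Msx1, Smim15, Hmcn2 and Igf2, with signals of 72 to 79, and in replicate 2 by A530084C06Rik, A930004D18Rik, Tbx3, Cbx8, Pax3 and Spag6, with 37 to 46. A missing hotspot says only that none was called at the depth of that library.

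Members kept closer to genes than other distal peaks. The median distance to a coding TSS was 4.41 kb in replicate 1 and 4.88 kb in replicate 2, against 29.8 kb and 32.3 kb. Beyond 10 kb lay 34.6% and 37.5% of members (mean 36.1% ± 2.08, SD, n = 2), against 73.1% and 74.7% of other distal peaks. Between 1 and 2 kb lay 730 members of replicate 1 (32.3%) and 632 of replicate 2 (32.5%), against 6.24% and 5.48%. They were on the downstream side of the nearest coding TSS in 63.9% and 62.2% of cases, against 52.7% and 52.3%.

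Coding exons held many members and few other distal peaks. A coding exon held 582 members of replicate 1 (25.7%) and 419 of replicate 2 (21.5%), against 1.14% and 1.03% of other distal peaks. For GC-rich, CpG-poor distal peaks the shares were 4.49% and 4.31%. All exons together held 33.3% ± 3.09 (SD, n = 2) of members, introns 29.5% and 30.3%, and intergenic sequence 35.0% and 38.6%. Coding exon members were weaker and recurred less often in replicate 1: their median signal was 53 and 38, against 77 and 53 for intergenic members, and they recurred in 53.3% and 73.7% of cases, against 72.6% and 78.8%. Coding sequence is G plus C rich as a rule, and its part in these values was not tested. Outside exons the signal difference from other distal peaks was 36.4 and 34.1 percentile points.

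**Figure D3:**
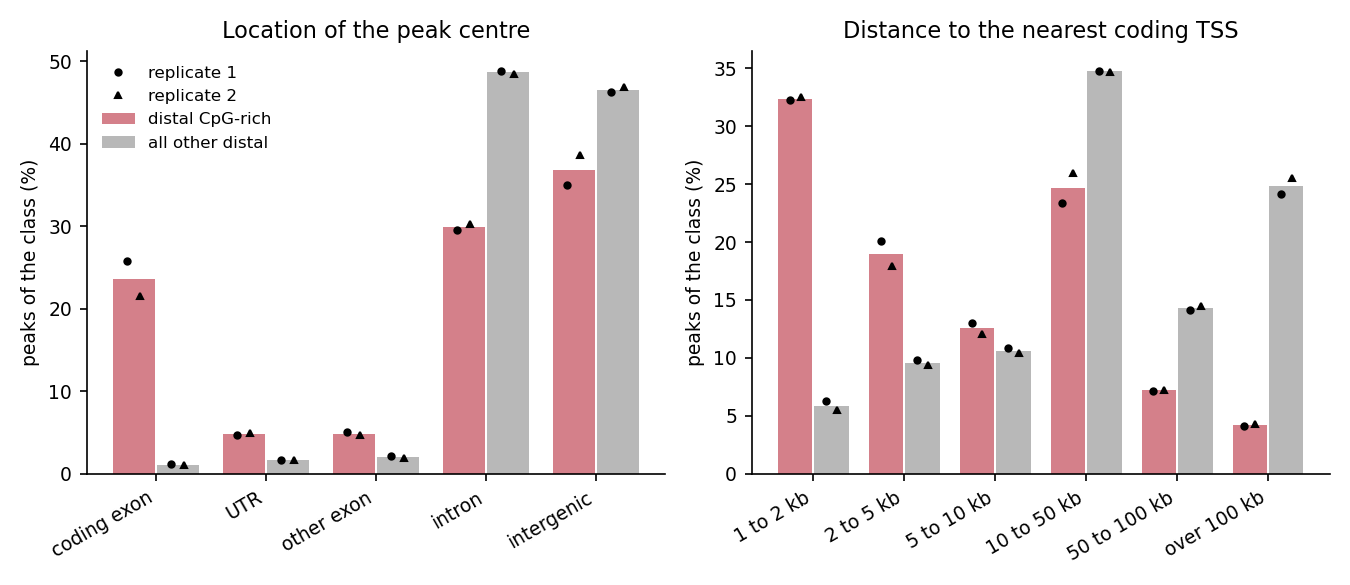
Percentage of peaks (y axis) by location of the centre (left) and by distance to the nearest coding TSS (right), for distal CpG-rich peaks and all other distal peaks. Bars are means of the 2 libraries and symbols the values of each; coding exons hold 25.7% and 21.5% of distal CpG-rich peaks and 1.14% and 1.03% of the others.

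Of the 310 recurring members in coding exons, the strongest was that of Angptl6, printed above, which encodes a secreted angiopoietin-like protein, with 136 and 115. The next, in an exon of the zinc finger gene Zfp771 (chromosome 7, 127254176 to 127254325, nearest coding TSS that of Dctpp1), had 136 and 108 and a CpG ratio of 1.31, the highest among members of replicate 1. The RefSeq start nearest to the Angptl6 member was 0.249 kb away. Those in Sptbn4, a spectrin (129 and 116), in Fbxl22, an F-box protein (137 and 102), and in Synpo2l, an actin-associated protein of muscle (127 and 103), were also among the strongest. These exon members were named after their values were seen.

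Most members were away from the starts of the RefSeq annotation as well. A RefSeq transcript start lay within 500 bp of 290 members of replicate 1 (12.8%) and 277 of replicate 2 (14.2%), against 2.02% and 1.95% of other distal peaks. These members had median signals of 74 and 51, and the remaining ones 63 and 45. The hotspot of a member reached within 500 bp of a coding TSS for 226 members of replicate 1 (9.996%) and 99 of replicate 2 (5.09%), and their median signals were 83 and 66. Without them the medians were 62 and 44, still above the 39 and 29 of other distal peaks.

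The 5 recurring members farthest from any coding TSS ranged from signals of 28 to 59 in replicate 1 and from 16 to 36 in replicate 2. The farthest lay 613.3 kb upstream of Ywhaq, which encodes a 14-3-3 adaptor protein (chromosome 12, 22030816 to 22030965), with signals of 28 and 20. The next, 552.0 kb upstream of Dsel (chromosome 1, 112416816 to 112416965), had 34 and 25 and lay 0.027 kb from a RefSeq start. The other three, 366.8 to 367.1 kb upstream of Ywhaq within 1 cluster, had 58, 59 and 40 in replicate 1 and 28, 36 and 16 in replicate 2, and the first 2 stood above the median of all peaks (42) in replicate 1. All 3 lay within 0.146 kb of a RefSeq start. The central 32 bases of 2 of them occurred 4 and 3 times in the genome, and the part of such copies in their signal was not tested. Such repeats were rare overall: 49 members of replicate 1 (2.17%) and 39 of replicate 2 (2.01%) had their central 32 bases elsewhere on the main chromosomes, against 1.63% and 1.42% of other distal peaks. Beyond 100 kb lay 92 and 84 members in all.

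Joining members of both libraries that lay within 500 bp of each other gave 1987 regions. Members of both libraries were in 1314 of them (66.1%), of replicate 1 alone in 454 and of replicate 2 alone in 219. No like share was computed for other peaks, and recurrence over all peaks was 61.3% and 65.1%. A region with members of 1 library may still hold a peak of the other outside the rule. Of the 1470 recurring members of replicate 1, 94 overlapped such a peak. At most 1 member per library was in 1495 regions, the median width was 170 bp, and 121 regions held 3 or more members of 1 library. Among the broadest were a region of 2010 bp in Maml3, a coactivator of Notch signalling, with 5 members in replicate 1 and 4 in replicate 2, and 1 of 1990 bp in Kdm6b, with 3 and 6. By chromosome, members were densest on chromosome 11 (235 and 210 members, 1.92 and 1.72 per Mb) and least dense on X (0.456 and 0.357 per Mb) and Y (0.0981 and 0.0872 per Mb). As a share of distal peaks, however, members were 2.14% and 1.84% on X and 19.6% and 14.8% on Y (9 and 8 members), above the 1.40% and 1.28% over all chromosomes. Of those on Y, 9 and 7 were nearest to 1 gene, Gm21860, so the share on Y mostly describes 1 locus. Of the 7 recurring members there, 5 had their central 32 bases elsewhere in the genome.

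Within the members, richer CpG content went with location more than with signal. Members with a ratio from 0.6 to 0.7 had a median signal of 61 and 44, and those of 0.9 or more 67 and 48. The share in coding exons was 17.0% and 14.4% in the first of these classes and 43.3% and 35.4% in the second. Recurrence moved little between them, from 63.7% to 62.1% in replicate 1 and from 77.3% to 77.0% in replicate 2. By G plus C, the share in coding exons was 11.9% and 8.75% between 55 and 60%, and 42.1% and 35.4% at 70% or more. At the threshold itself, the 3 members of replicate 1 just inside had signals of 58 (Foxp4), 26 (Gm21860) and 137 (Fos), and the 3 distal peaks just outside 112 (Ube2v1), 32 (Gp5) and 61 (Bcl11a). In replicate 2 those inside had 37 (Meis2), 24 (Apbb1ip) and 55 (Scube1), and those outside 60 (Bcor), 27 (Cdh22) and 30 (Zfp423).

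Short sequence motifs were counted on both strands in the central 150 bp of each peak. A match describes letters and not a bound site. Of 27 motifs, 9 were over 1.5 times more frequent in members than in other distal peaks in both libraries, 13 were over 1.5 times less frequent and 5 lay between. Since the rule chose for CpG, motifs that hold a CpG had to be frequent and AT-rich motifs scarce, so this contrast is given as a description. The SP and KLF motif GGGCGG, bound by zinc fingers of CpG island promoters, was in 912 of 2261 members of replicate 1 (40.3%) and 831 of 1945 of replicate 2 (42.7%). It was in 4.54% of other distal peaks, in 17.2% of the GC-rich, CpG-poor ones and in 57.9% of CpG-rich TSS peaks (means of both libraries).

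The other promoter motifs followed the same order. The ETS motif CCGGAA was in 8.60% ± 0.712 of members (SD, n = 2), 2.42% of other distal peaks and 16.8% of CpG-rich TSS peaks. The NRF1 motif, a palindrome given here by name, was in 1.22% ± 0.231, 0.0690% and 2.98%. The motif TCTCGCG, of the kind bound by BANP at CpG islands, was in 2.17% ± 0.375, 0.118% and 3.93%. For the E2F motif GCGGGAA the shares were 5.10%, 0.763% and 5.65%, for the YY1 motif ATGGCGG 2.14%, 0.569% and 4.28%, and for the CREB motif TGACGT 3.73%, 2.34% and 7.24%. The E-box CACGTG of MYC and USF was in 5.94%, 2.82% and 6.32%, and the AP-2 motif GCCNNNGGC, of factors of neural crest and epidermis, in 18.3%, 5.23% and 20.1%. In each of these motifs members stood between other distal peaks and CpG-rich TSS peaks.

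The 13 motifs scarcer in members than in other distal peaks were the following. The RUNX motif AACCACA, of cartilage and bone regulators, was in 1.05% ± 0.112 of members and 4.54% of other distal peaks. The short NFI site TTGGCA was in 4.44% against 16.9%, and the full NFI site in none of the members of either library against 0.250%. The TEAD motif ACATTCC was in 1.37% against 4.62%, the posterior HOX motif TTTATGG in 0.990% against 3.22%, the homeodomain motif TAATTA in 1.14% against 3.15%, and the MEF2 motif of muscle in 0.710% against 2.40%. The E-box CAGATG, of Twist and other bHLH factors, was in 7.11% against 19%, the SOX motif ACAAAG in 6.61% against 11.9%, and the AP-1 motif TGAGTCA in 1.75% against 4.47%. The GATA motif AGATAA stood at 1.89% against 5.38%, the MEIS motif TGACAG at 6.13% against 11.8%, and NF-Y (CCAAT) at 11.6% against 19.7%. NF-Y reached 20.5% in CpG-rich TSS peaks, so members held it less often than either class. CTCF (2.74% against 3.62%), REST, EBF, GLI (ACCACCC, 2.26% against 1.83%) and the E-box CAGCTG (13.7% against 18.4%) were within 1.5 times. Set against GC-rich, CpG-poor distal peaks (means of both libraries), which were not matched to members for G plus C (above), some motifs changed sides. Of the 9 motifs more frequent in members, AP-2 (12.8% there) and the E-box CACGTG (3.99%) came within 1.5 times. NF-Y (13.9% there), GATA (2.43%), SOX (8.65%) and homeodomain (1.57%) came within 1.5 times, while the rest of the 13 stayed over 1.5 times scarcer in members. CAGCTG (27.9% there), REST and EBF became over 1.5 times scarcer in members. CTCF, REST, EBF, MEF2 and the full NFI site are given by name, and the short NFI site is part of the full one.

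**Figure D4:**
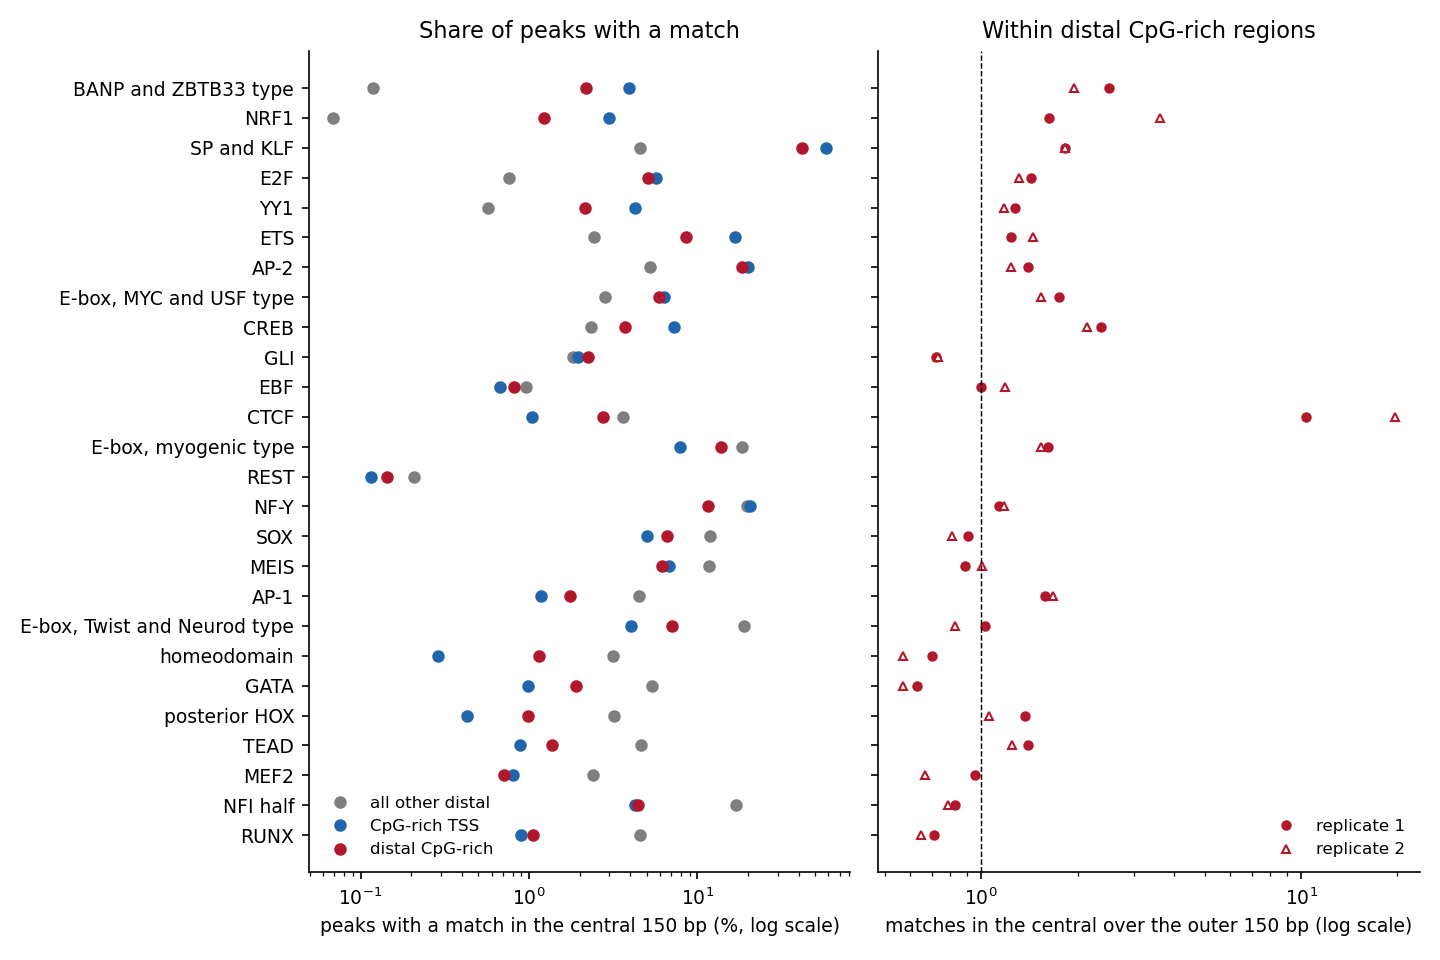
Left, percentage of peaks with a match in the central 150 bp (log scale, means of 2 libraries) for 26 motifs (all but the full NFI site) in distal CpG-rich, other distal and CpG-rich TSS peaks. Right, matches in the central 150 bp over those in the outer 150 bp of the same distal CpG-rich windows (log scale, each library); the CTCF motif is the farthest right, at 10.3 and 19.7.

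Position within the window is a measure that composition does not fix to the same degree. The central 150 bp of members were set against the outer 150 bp of the 500 bp window, 75 bp on each side. CTCF, the insulator protein, had 62 matches in the centres and 6 in the outer parts in replicate 1, and 59 and 3 in replicate 2. The SP and KLF motif had 1438 against 784 and 1304 against 714, 1.83 times in both libraries. CREB matches were 2.36 and 2.14 times as frequent in the centre, and the E-box CAGCTG, which holds no CpG, 1.62 and 1.53 times. AP-1 stood at 1.58 and 1.68 times. The GATA and homeodomain motifs were scarcer in the centre, at 0.631 and 0.569 times and at 0.703 and 0.568 times. The centre is richer in G plus C than the outer parts (above), and its part in these ratios was not tested.

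Members with certain motifs gave higher signals than those without. The 60 members of replicate 1 and 55 of replicate 2 with a CTCF match had median percentiles of 92.6 and 86.8, against 76.0 and 74.6 without, and recurred in 95% and 96.4% of cases, against 64.2% and 75.7%. With the CREB motif the percentiles were 90.1 and 94.0 (85 and 72 members), with NF-Y 88.2 and 86.8 (258 and 229 members), and with SP and KLF 83.5 and 80.5, against 72.8 and 70.7 without. Members with a homeodomain match stood lower, at 66.8 and 64.7 (25 and 23 members). The strongest CTCF member, in Zfp91, had signals of 123 and 108.

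Members were given to the nearest coding TSS within 100 kb, and 1040 of 21938 protein-coding genes (4.74%) had at least 1 that recurred. Most had 1 only (793 genes), and 25 genes had 4 or more, of which 5 with 4 each (Mex3b, Nfib, Slc38a10, Socs3 and Tex44) came after the first 20 in the order of names. Bcor on the X chromosome, which encodes a corepressor and subunit of a Polycomb complex, had 11, by far the most, with 26 members in replicate 1 and 13 in replicate 2. None was in an exon, 7 lay upstream and 4 downstream of the TSS, out to 92.2 kb, and their signals ran from 48 to 94 (median 81) in replicate 1 and from 38 to 74 (median 54) in replicate 2. Members were 26 of the 61 distal peaks of Bcor in replicate 1 and 13 of 36 in replicate 2.

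Among the genes with the most members were the following regulators of chromatin and transcription. Kdm6b, a demethylase that removes the Polycomb mark, had 6 recurring members within 5.32 kb of its TSS, with signals of 57 to 131 and 38 to 117. Nr2f2, a nuclear receptor of mesenchyme, had 6, out to 74.2 kb, with 42 to 133 and 21 to 105. Zfp503, a zinc finger corepressor, had 6, of which 5 were in its exons, with 47 to 137 and 29 to 119. Casz1, a zinc finger factor, had 5, and Cbx8, a Polycomb subunit, Chd7, a chromatin remodeller, and Mecom, a zinc finger factor, had 4 each. The 4 of Cbx8 were strong in both libraries, with 92 to 117 and 74 to 113.

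The remaining genes of the 20 with the most recurring members were of mixed kinds. Tchh, which encodes trichohyalin of the hair follicle, had 7, all in its exons within 4.09 kb, with 42 to 88 and 25 to 63. 1700001O22Rik had 7 and Cstad, also on chromosome 2, 5, with median signals of 110 and 77 for the first (replicate 1, replicate 2) and 111 and 84 for the second. Rps6ka1, a kinase of the ERK pathway, had 5, the strongest group here, with 112 to 135 and 81 to 103. Psd2 had 6, Cxxc5, which holds a CpG-binding CXXC domain, 5, Ccr1, a chemokine receptor, 5, and Acot11, Calcoco1 and Efna3 4 each. Gm21860 on Y had 7, of which 5 had their central 32 bases elsewhere in the genome, and Dynlt1b had 4 within 0.45 kb, 2 of them so, and these counts are uncertain.

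The share of genes with a recurring member differed between the gene lists. Among 37 homeobox genes of limb and mesenchyme, 15 (40.5%) had a recurring member, among 55 limb regulators of other families 20 (36.4%), among 69 signalling ligands, receptors and antagonists 23 (33.3%), and among 72 regulators of other organs 20 (27.8%). HOX cluster genes stood at 7 of 39 (17.9%). The share over all protein-coding genes was 4.74%. Of 38 genes of cartilage, bone and tendon matrix, 2 (5.26%) had one, of 31 skeletal muscle genes, a list that also holds transcription factors, 2 (6.45%) and of 25 housekeeping genes 1 (4%). Epidermal genes and endothelial and blood genes stood at 5 of 30 each (16.7%), imprinted genes at 4 of 33 (12.1%), and none of 57 clustered protocadherin genes had one. The median number of recurring members per gene was 0 in each list and over all genes. The lists were chosen with results of these data known, and these shares carry no test.

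Genes with more distal peaks of any kind have more chances to hold a member, so members were also counted as a share of the distal peaks of each list. Over all coding genes that share was 1.77% in replicate 1 and 1.63% in replicate 2. It was 7.43% and 5.09% for homeobox genes of limb and mesenchyme, with a median of 19 and 15 distal peaks per gene against 2 and 2 over all genes. For other limb regulators it was 4% and 3.77%, for signalling genes 5.201% and 5.12%, and for regulators of other organs, with 8 and 5 distal peaks per gene, 9.01% and 9.93%. For matrix genes it was 0.818% and 0.432%, with 8 and 7.5 distal peaks per gene, below the share over all genes in both libraries. Skeletal muscle genes had 2.30% and 1.57%, endothelial and blood genes 3.68% and 4.76%, and imprinted genes 3.13% and 1.17%.

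**Figure D5:**
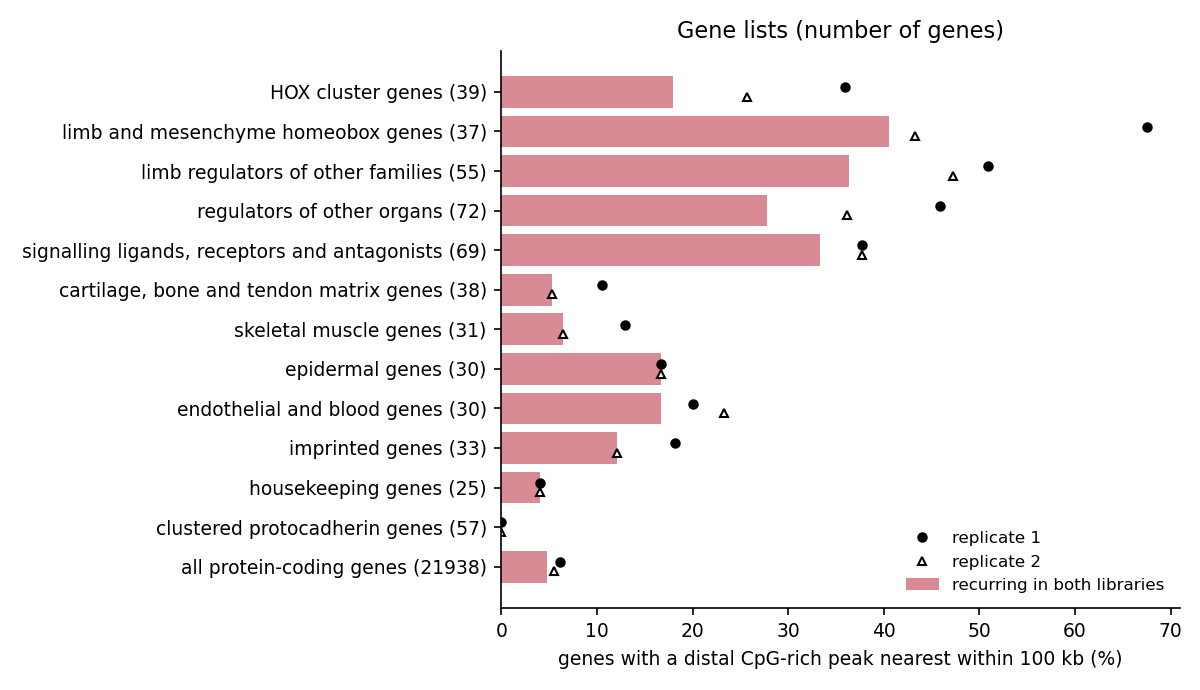
Percentage of genes (x axis) with a distal CpG-rich peak nearest within 100 kb, for each gene list with its number of genes. Bars count genes with a recurring member and symbols those with a member in each library; 15 of 37 homeobox genes of limb and mesenchyme and 2 of 38 matrix genes had a recurring member.

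Named members of the lists show the levels behind these counts. In the homeobox list, Barx1, Dlx2 and Dlx4 had 2 recurring members each. The strongest of Dlx2, a factor of bone and facial mesenchyme, lay 34.4 kb away and had 91 and 55. Among other limb regulators Nfib, a nuclear factor I gene, had 4 (strongest 135 and 98, intronic), Runx1 3 (104 and 83, intronic) and Ebf3 2 (116 and 86), with 10 members in replicate 1 and 3 in replicate 2. Among signalling genes Dll4, a Notch ligand, had 3 (strongest 95 and 70), Wnt10a 3 (117 and 88) and Wnt7b 3 (139 and 117).

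Some genes listed as regulators of other organs held members in the limb as well. Pax2, a regulator of kidney and inner ear, had 3 recurring members, the strongest 31.9 kb away with 65 and 48, Dmbx1 had 2 (61 and 31) and Evx1 2 (83 and 54). In the separate list of endothelial and blood genes, Klf1, the erythroid regulator, had 2, the strongest in its coding exon with 103 and 70. Sox17 had 2 (99 and 66) and Tal1 2 (74 and 43). Among matrix genes the 2 recurring members were at Acan, the cartilage proteoglycan (83 and 71, 63.0 kb away), and Col2a1, the cartilage collagen (78 and 47, 1.18 kb away). In the muscle list they were given by nearest TSS to Chrnd, a subunit of the acetylcholine receptor, and to Mef2c. The first (105 and 60) lay 3.44 kb away, in a coding exon outside Chrnd, and the second (91 and 60) 92.3 kb away. Esrp1, Grhl2 and Grhl3 of the epidermis, the imprinted genes Cdkn1c, H13 and Ndn, and Actb among housekeeping genes had 1 each.

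HOX genes set position along the body and the limb axis. By nearest coding TSS within 100 kb, 7 of 39 (17.9%) had a recurring member, against 4.74% over all protein-coding genes. The one given to Hoxc4 lay 26.6 kb away, outside the HoxC cluster. Counted within the clusters, HoxA (chromosome 6, 52155590 to 52260880) held 6 members in replicate 1, of which 3 recurred, and 5 in replicate 2. HoxB held 4 and 2 with 1 of replicate 1 recurring, HoxC 1 and 1 with none, and HoxD 4 and 2 with 2. HoxC had 1 member of replicate 2 that a replicate 1 peak outside the rule covered. The strongest recurring one, in an intron of Hoxa3 (chromosome 6, 52211656 to 52211805), had 122 and 89, and the one 1.86 kb upstream of Hoxd12 (chromosome 2, 74673076 to 74673225) had 107 and 79. Between Hoxa11 and Hoxa13, replicate 1 had 2 members with 53 and 84 and replicate 2 had 1 with 44, and none of them recurred. The member of replicate 2 overlapped a hotspot of replicate 1, while those of replicate 1 overlapped none of replicate 2. Coding exons held members in Hoxa6 (45 and 24) and Hoxa7 (70 and 40) in both libraries, and in Hoxb8 (54) and Hoxb2 (59) in replicate 1 alone. As a share of the distal peaks given to HOX genes, members were 14.7% in replicate 1 and 9.76% in replicate 2, against 1.77% and 1.63% over all genes.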

How the data were processed

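DNase-seq signal was measured in 2 libraries of limb from 1 group of mouse embryos. The authors deposited a peak list per library, with a signal for each peak of 150 bp on a scale that no source used here states, and a hotspot list whose −log10 q-values run from 1.30 to a ceiling of 100, as deposited. Each list belongs to 1 library. Aligner and caller were not given in the sources used here, and the labels list 2 sequencing instruments for replicate 2 alone.

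Peaks off chromosomes 1 to 19, X and Y (291 and 277) were left out and 47 and 27 listed again were counted once, which left 208627 and 196566. Depth is unknown. Composition came from mm10, starts from GENCODE M21 and RefSeq. Percentiles rank signal within a library. Recurrence needed 50% coverage by peaks of the other library. The outer bases lay 175 to 250 bp from the centre. Members went to the nearest coding TSS within 100 kb. Members and gene lists were chosen with earlier results of these data known.

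Named were the 15 recurring members of highest mean percentile, the 5 farthest, 2 per library without a hotspot in the other, 3 on each side of the threshold, 20 genes with most recurring members and 3 per list. Values are means ± SD over libraries, with no test. Alternatives changed the window, thresholds, distance, overlap and number of peaks, or left out a library. Those without exons, with 1 peak per region and against GC-rich, CpG-poor peaks were added after seeing the data. The scripts were tested on simulated data. Python 3.11.15, numpy 2.4.6, pandas 2.3.3, scipy 1.17.1 and matplotlib 3.10.9 were used.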

Additional observations from a re-analysis of the deposited data

How the results depend on the processing

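No alternative reversed a mean over both libraries. In replicate 2 alone the recurrence difference at equal signal changed sign, from -6.69 points to 4.82 by hotspot overlap and to 5.57 among the 50000 strongest peaks. With a 300 bp window, members were 1.68% of distal peaks, the percentile difference was 32.3, 29.9% were in exons, 38.7% lay beyond 10 kb and 7.34% of genes had a member (mean over libraries, 5.81% as reported). With 1000 bp these were 1.04%, 27.8 points, 32.2% beyond 10 kb and 4.28% of genes. A CpG ratio of at least 0.75 left 1009.5 members per library, 0.643% of distal peaks, 32.5 points, 40.5% in exons and 3.16% of genes. G plus C of at least 50% gave 1.78%, 30.5 points, 28.9% in exons, 38.97% beyond 10 kb and 7.38% of genes. A distance over 2 kb left 1229 members, 0.875%, 33.9 points, 26.8% in exons, 50.9% beyond 10 kb and 3.49% of genes. Among the 50000 strongest peaks there were 1072 members, 3.72% of distal peaks, with 82.5% recurring, a difference of -2.28 points at equal signal, 5.94 percentile points, 25.4% in exons and 3.53% of genes. By hotspot overlap 84.9% recurred. Of the alternatives chosen after seeing the data, peaks outside exons gave 1399.5 members, 0.940%, 35.3 points, 44.8% beyond 10 kb and 3.95% of genes, 1 peak per region gave 1.06% and 35.0 points, and the contrast with GC-rich, CpG-poor peaks gave 13.8 points. The cause of these shifts was not tested. With either library alone, members numbered 1945 to 2261 and recurrence was 65.02% to 76.2%. No paired analysis was possible because the study has 1 group. Unknown depth limits every absence of a peak.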
